A study of Homo sapiens with 16 samples.

Results

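Insulin-like growth factors (IGFs) and the proteins that bind them were followed here across the cell types of mouse mammary tumors. The 8 genes are the ligands Igf1 and Igf2 and the binding proteins Igfbp2, Igfbp3, Igfbp4, Igfbp5, Igfbp6 and Igfbp7, out of 32285 genes counted. They were chosen by family and by their UMI counts per cluster and experiment in these data, so their levels are given as a description and without a test. IGF1 and IGF2 signal through the receptor IGF1R, while IGF2R mainly removes IGF2. The classical binding proteins hold the ligands outside the cell, prolong their life and can block or deliver them, and proteases such as PAPP-A release the ligand by cutting them. In mammary tissue the ligands come largely from the stroma, and IGFBP5 is known for its part in the involution of the gland.

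The tumors were LPA1-T22 (T22), sensitive to the PARP inhibitor olaparib, and LPA1-T127 (T127), resistant to it. Both are syngeneic tumors transplanted as pieces into the mammary fat pad of female FVB mice 6 weeks of age. In the long-term experiment mice received olaparib (50 mg/kg daily) or vehicle for 20 days, and tumors grew as a single strain or with T22 and T127 on opposite sides of 1 mouse. These cells were captured in 8 pools that mix both models. In the short-term experiment T22 and T127 tumors treated for 4 or 8 days were captured separately, in 4 pools each. The 16 pools mix vehicle and olaparib, and the tumor that each cell came from was not traced here, so treatment, time and transplant setting were not compared. Tagged tumors were pooled before capture, and which tumors each pool holds was not known here, so pools were not taken as replicates and each experiment and model counts as 1 sample. Short-term T22 and T127 cells never shared a pool, so that model and capture cannot be told apart there. Each model is a single transplant line.

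Levels are counts of unique molecular identifiers (UMIs, 1 per captured RNA molecule) summed over the cells of a cluster and given per 1000000 UMIs of those cells (CPM). Intervals in brackets are exact 95% intervals and cover counting error only. Ranges are over pools with at least 20 cells of the cluster. Where all pools of 1 experiment are said to lie above or below those of another, the share of all genes that do so was not counted. The deposited names were used for the 22 clusters, 15 of them immune. Malign_0 and Malign_1 are T127 malignant cells, Malign_2 and Malign_3 are T22 malignant cells, and i_CAF and my_CAF are named as inflammatory and myofibroblastic cancer-associated fibroblasts. Pools held 32298013 to 43985662 UMIs in the long-term, 40270841 to 42436039 in the short-term T22 and 49690430 to 55600377 in the short-term T127 experiment, with a median per cell of 9548.5 to 11720.5, 7730 to 8528 and 22712 to 26017 UMIs. Long-term pools 1 and 2 shared 3939 cell barcodes, pools 1 and 3 shared 987 and pools 2 and 3 shared 1082, so the deepest copy of each was kept, which left 48824 of 53946 cells.

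Markers of the clusters were checked first. The i_CAF cells carried 35158, 55136 and 66927 CPM summed over 6 fibroblast genes (Dcn, Col1a1, Col1a2, Col3a1, Pdgfra and Lum) in the long-term, T22 and T127 pools. The my_CAF cells carried 6 pericyte and smooth muscle genes (Rgs5, Pdgfrb, Notch3, Kcnj8, Acta2 and Tagln) with a sum of 16336, 16843 and 19498 CPM, the last from only 8 cells. Among these was the pericyte marker Rgs5 at 4203, 9746 and 10115 CPM, against 0.57, 3.4 and 1.6 CPM in i_CAF. The Rgs5 level goes against the name of my_CAF as fibroblasts, while Acta2 is also a gene by which the study assigned fibroblasts. Endothelial cells carried 4501, 6621 and 6010 CPM of 6 endothelial genes. Malign_2 carried the smooth muscle gene Acta2 at 7275 CPM in the long-term and 4685 CPM in the T22 pools but almost no Rgs5 (1.28 and 0.73 CPM). Malign_0 carried the fibroblast gene Dcn at 4305 CPM in the long-term and 2579 CPM in the T127 pools.

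**Figure D1:**
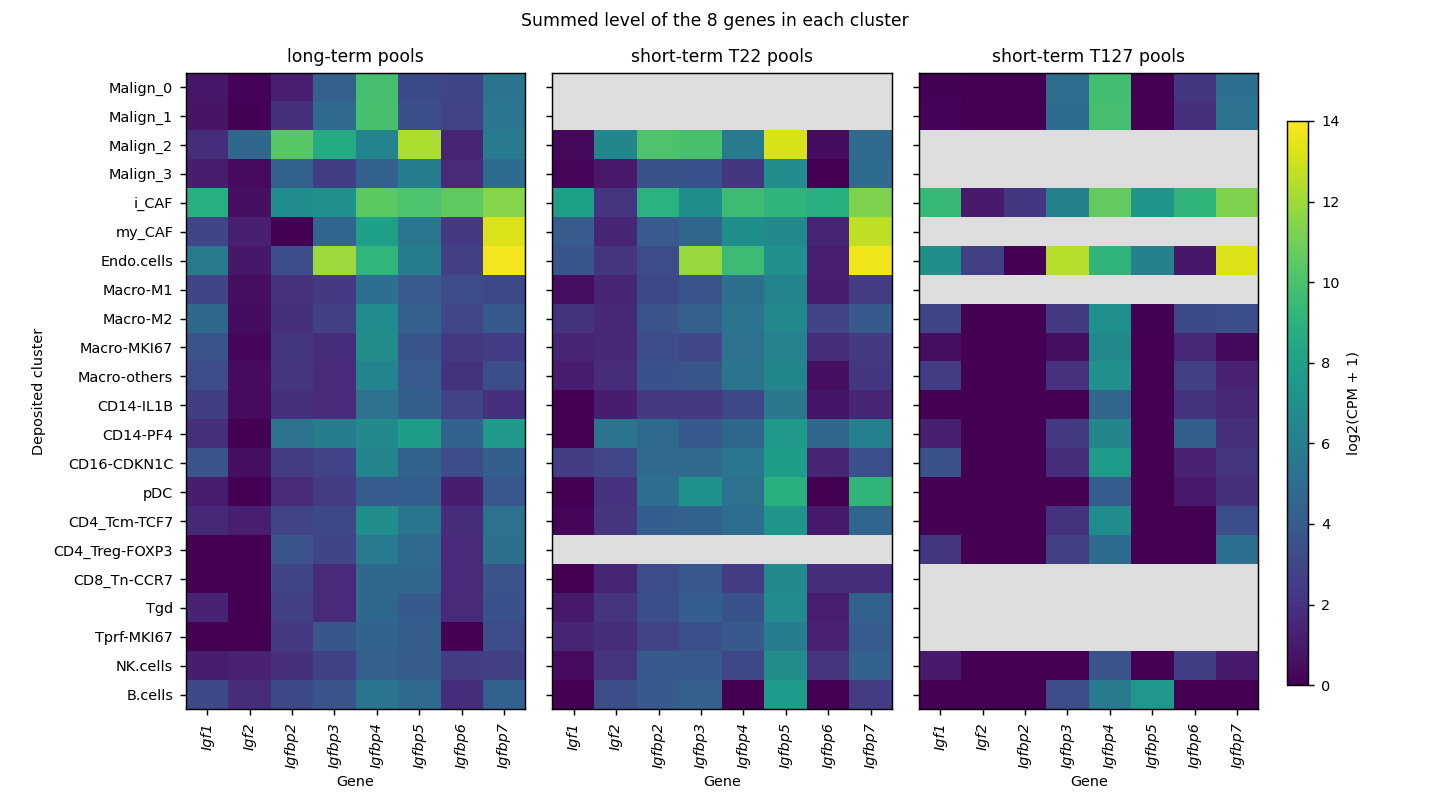
Level of the 8 genes as log2(CPM + 1) in each deposited cluster, UMIs summed over all pools of the experiment. Grey marks clusters with fewer than 20 cells. Bright cells show Igf1 and Igfbp6 in i_CAF, Igf2, Igfbp2 and Igfbp5 in Malign_2, Igfbp3 in endothelial cells and Malign_2, Igfbp4 in i_CAF, endothelial and T127 malignant cells, and Igfbp7 in endothelial cells, my_CAF and i_CAF.

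The stroma and the T22 cluster Malign_2 had the highest levels of most of the family. Igf1 and Igfbp6 were highest in i_CAF, Igfbp3 and Igfbp7 in endothelial cells, and Igf2, Igfbp2 and Igfbp5 in Malign_2 wherever T22 tumors were present. Igfbp4 was highest in i_CAF in the long-term pools, where it overlapped the pool ranges of Malign_0 and Malign_1, and in the T127 pools. In the T22 pools endothelial cells (774 CPM) and i_CAF (764 CPM) did not differ beyond their pool ranges. Malign_3, the other T22 malignant cluster, held little of any of the 8 genes.

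RNA released by broken cells is captured with every cell and adds the same mixture to all droplets of a pool. To separate cells that make a gene from such free RNA, the CPM of a gene in a cluster was divided by its CPM over all cells of the pool. The same ratio was taken for anchor genes foreign to the cluster (collagens, Dcn, keratins and Epcam for immune cells, immune genes and Epcam for stromal cells, and immune genes with 2 endothelial genes for malignant cells). A gene was called above free RNA where its ratio was more than 2 times the highest anchor in every pool. By this rule 19 of 152 pairs of gene and cluster lay above free RNA in the long-term, 20 of 128 in the T22 and 15 of 104 in the T127 pools, where 33.2%, 53% and 22.2% of the pairs of all genes with at least 100 UMIs did. Igf2 and Igfbp2 had under 100 UMIs in the T127 pools. Their 13 pairs each, 0 of them above with or without Epcam, are in the T127 counts of the family but would not enter those of all genes. In i_CAF 7 of the 8 genes were above in the long-term pools, all but Igf2, where 60.9% of all genes passed the same rule. In the T22 pools 6 of 8 passed (73.2% of all genes), and in the T127 pools 4 of 8 (7.25%), namely Igf1, Igfbp5, Igfbp6 and Igfbp7. Igfbp4 did not pass in T127 i_CAF, with a ratio of 1.60 to 2.44 over 3 pools. The highest anchor ran from 0.0218 to 1.11 between these pools, so failing the rule there does not show that the RNA is free. In Malign_2 4 of 8 passed in the long-term pools (68.4%) and 6 of 8 in the T22 pools (86.7%). In endothelial cells 3 passed in the long-term (23.2%), 3 in the T22 (38.6%) and 4 in the T127 pools (42.3%). The my_CAF had 2 in the long-term (30.5%) and 2 in the T22 pools (53.2%). Malign_0 and Malign_1 had 1 each in the long-term pools (69.4% and 45.1%), and 4 and 3 in the T127 pools (90.4% and 89.1%). In Malign_3 none of the 8 passed in either experiment, where 63.9% and 68.6% of all genes did.

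Epcam turned out to be a poor anchor in myeloid cells. In the T127 pools it stood at 636 CPM in CD14-IL1B cells, while the T127 malignant clusters held 0.89 to 2.0 CPM. The counts were therefore repeated without it, a choice made after the data were seen, and then came to 23, 28 and 23 pairs, where 43.9%, 63.7% and 52.4% of the pairs of all genes passed. The added pairs were all in immune clusters. They included Igf2, Igfbp4 and Igfbp6 in NK cells of the T22 pools, at 3.34, 7.11 and 3.34 CPM, where 70.2% of all genes passed, so the rule without Epcam also passed genes at very low levels.

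**Figure D2:**
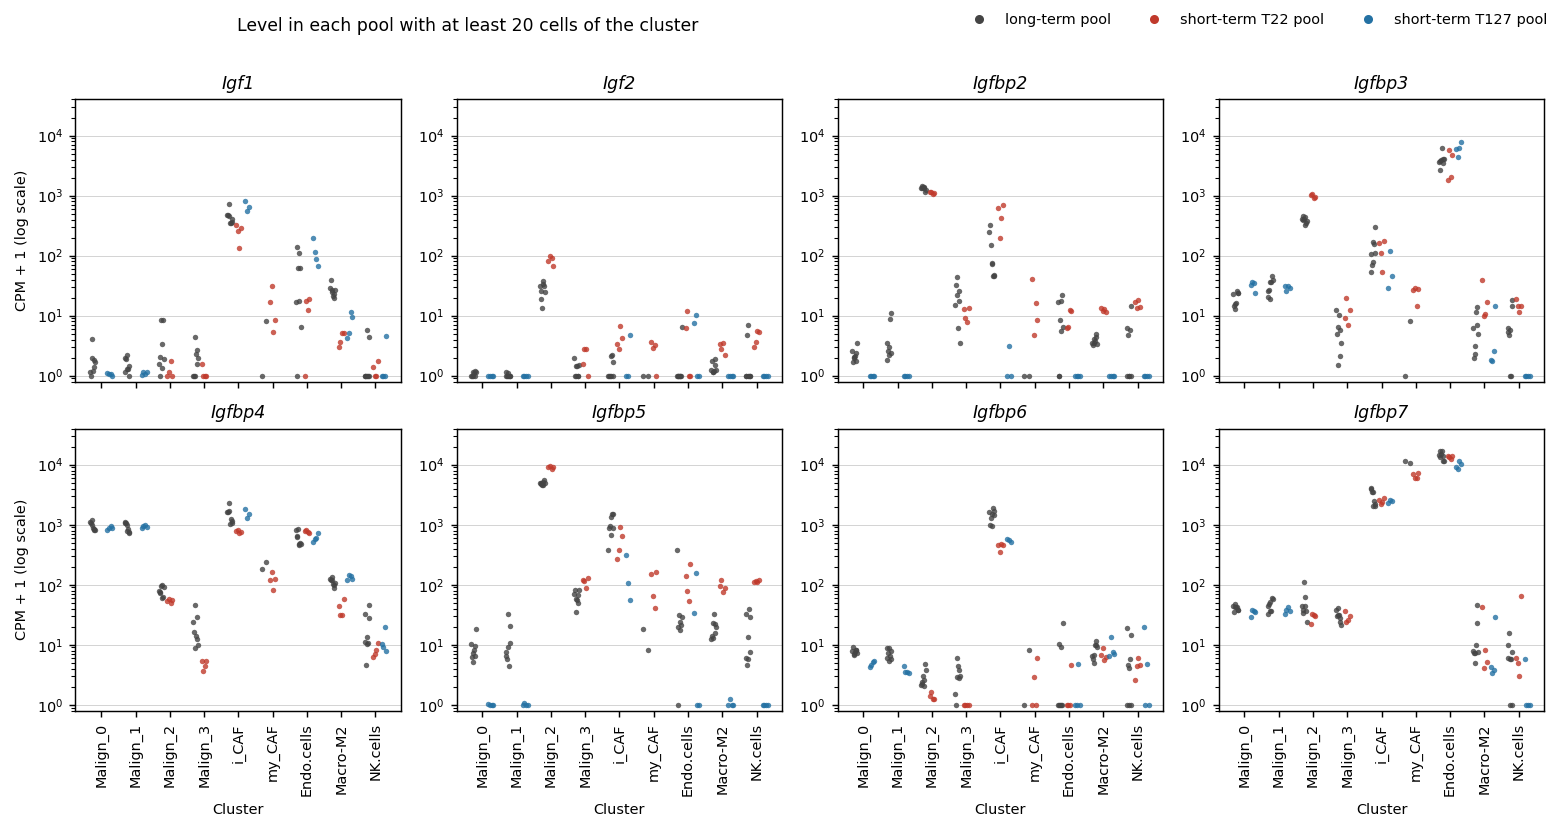
CPM + 1 on a log scale in each pool with at least 20 cells of the cluster, by gene (panels), cluster (x axis) and experiment (colour). Igf1 in i_CAF lay at 352 to 733 CPM in the long-term pools, and Igfbp5 in Malign_2 lay at 8529 to 9440 CPM in the T22 pools, above all 8 long-term pools.

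Igf1, the ligand that growth hormone induces and that stromal cells make locally, was a gene of i_CAF. In i_CAF the long-term pools ran from 352 to 733 CPM around a median of 431 CPM. The 4 T22 pools gave 324, 258, 133 and 293 CPM. The 4 T127 pools gave 817, 562, 649 and 608 CPM, the last from 17 cells. The T127 pools thus all lay above the T22 pools, with 663 CPM against 249 CPM in sum, a 2.66-fold difference. Without the 5% of cells with the most UMIs, T22 i_CAF held 153 CPM and the log2 ratio of T22 to T127 moved from -1.41 to -2.11. After thinning to 3000 UMIs, 45.4% of long-term i_CAF (63.9% unthinned), 27.0% of T22 and 57.6% of T127 i_CAF had an Igf1 UMI. Among T and NK cells, which should lack the gene, the long-term share was 0.363%. The median depth was 14498 UMIs in these i_CAF and 3678 UMIs in these T and NK cells. The my_CAF held 6.74 CPM in the long-term pools, 65.9-fold less (28.2 to 203) than i_CAF, from 5 UMIs. In the T22 pools it held 15.2 CPM from 27 UMIs, 16.3-fold less (11.2 to 24.9). Of these UMIs 16 lay in T22 pool 2, at 29.9 CPM. No malignant cluster passed 2.55 CPM, the value of long-term Malign_2, which was 1.54 CPM without pool 4.

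Endothelial cells carried a second, smaller Igf1 signal that differed between the short-term experiments. The T127 pools gave 199, 115, 86.0 and 65.6 CPM, all above the 0, 16.4, 11.6 and 18.3 CPM of the T22 pools. The sums of 125 and 12.2 CPM differed 10.2-fold. An Igf1 UMI was found in 23 of 95 thinned endothelial cells of the T127 pools (24.2%, 16.01 to 34.1%) and in 0 of 66 of the T22 pools, which allows a share of up to 4.55%. In the long-term pools the level was 53.5 CPM with a range of 0 to 139 CPM, overlapping both. The T127 endothelial cells held 141 Igf1 UMIs beside 29 UMIs of Dcn, whereas i_CAF of the same pools held 0.117 Igf1 UMIs per Dcn UMI. The endothelial ratio of 4.86 was 3.24 without pool 1. Igf1 passed the free RNA rule in endothelial cells in the T127 pools only.

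Macrophages and CD16-CDKN1C cells held lower levels of Igf1. Macro-M2 held 24.9 CPM in the long-term pools (18.4 to 38.4), above free RNA by the main rule, as were 47.1% of all genes. In the short-term pools it held 3.18 CPM (T22, 2.02 to 4.13) and 6.54 CPM (T127, 3.32 to 10.7). Both short-term ranges lay below the long-term range. CD16-CDKN1C cells held 12.1, 4.79 and 10.0 CPM. Without Epcam among the anchors, Macro-M2 in both short-term sets and CD16-CDKN1C in the long-term and T127 pools also passed. In those clusters 69.1% and 77.1% (Macro-M2) and 70.3% and 55.4% (CD16-CDKN1C) of all genes did. Macro-M2 held 0.443, 0.349 and 0.220 Igf1 UMIs per Dcn UMI in the 3 experiments, more than the 0.0678, 0.0582 and 0.117 of i_CAF. NK cells held 0.0294, 0.0270 and 0.0294, but from few Igf1 UMIs, 2 in the long-term and 1 in the T127 pools.

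Igf2, the fetal ligand, was found in Malign_2. There it stood at 25.3 CPM in the long-term pools (12.5 to 37.5, median 27.2). The corresponding T22 values were 81.1, 95.9, 91.5 and 67.3 CPM. All 4 exceeded every long-term pool, and the sums differed 3.33-fold. Malign_3 of the same tumors held 0.317 and 0.954 CPM, so that the ratio of Malign_2 to Malign_3 was 79.8 (34.0 to 247) in the long-term and 88.3 (37.8 to 272) in the T22 pools. An Igf2 UMI was seen in 6.21% of thinned Malign_2 cells in the long-term pools (23.7% unthinned, median depth 15779.5 UMIs) and in 16.1% in the T22 pools. The share among T and NK cells was 0.272% and 0.989%. In the T127 pools no Igf2 UMI was found in either malignant cluster, which allows up to 0.0319 CPM in Malign_0 and 0.0367 CPM in Malign_1. The 6 UMIs in T127 endothelial cells (5.30 CPM) gave 2.83 to 6.94 CPM when each pool was left out in turn, the lowest value without the pool that held the most. H19, the imprinted neighbour of Igf2 in the mouse genome, was highest in i_CAF, at 27.2, 46.2 and 31.1 CPM, and long-term Malign_2 came second at 11.99 CPM.

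Igfbp2, a binding protein with a preference for IGF2, was also a gene of Malign_2. The long-term pools ran from 1142 to 1434 CPM around a median of 1332 CPM, and the T22 pools gave 1132, 1136, 1049.9 and 1093 CPM, all just below that range. Malign_3 held 19.5 and 10.1 CPM. Of the thinned Malign_2 cells 89.6% and 85.6% had an Igfbp2 UMI, against 1.36% and 4.30% of T and NK cells. A second source lay in i_CAF of T22 tumors. In i_CAF the T22 pools gave 631, 198, 426 and 709 CPM, and the long-term pools ran from 44.6 to 324 CPM. The T127 pools gave 0, 2.14, 0 and 13.9 CPM, from 7 UMIs, and the level fell from 3.63 to 0.669 CPM without the fourth pool, which had 17 cells. The T22 level was 135-fold the T127 level (65.6 to 337), and the pools lay far apart. Among thinned T22 i_CAF 33.7% had an Igfbp2 UMI, against 0 of 85 in the T127 pools, which allows up to 3.53%. In the T127 pools no malignant or immune cell held a single Igfbp2 UMI.

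Igfbp5, which binds both ligands and the extracellular matrix, had the largest level of the family in malignant cells. The long-term pools ran from 4537 to 5553 CPM in Malign_2, with a median of 4898 CPM. Those of T22 gave 9068, 9440, 8529 and 9118 CPM, all above the long-term range, and the sums differed 1.85-fold. Malign_3 held 60.1 and 114 CPM, a ratio of 81.2 (76.2 to 86.7) and 79.6 (73.4 to 86.4). An Igfbp5 UMI was found in 95.4% and 98.0% of thinned Malign_2 cells. The i_CAF came second, and passed the free RNA rule in the long-term and T127 but not in the T22 pools. Their long-term pools ran from 380.3 to 1504 CPM (median 921), the T22 pools gave 266, 373, 902 and 653 CPM, and the T127 pools gave 309, 105, 55.5 and 176 CPM. T22 and T127 pools overlapped in i_CAF although the sums, 563 and 161 CPM, differed 3.50-fold. Both T127 malignant clusters held 1 Igfbp5 UMI each in the short-term pools, from 2515 and 2363 cells.

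Beside each other in the long-term pools, where both models were captured together, T22 malignant cells held 2945 CPM of Igfbp5 and T127 malignant cells 8.48 CPM. The log2 ratio with 1 CPM added was 8.28, and the 8 pools ran from 7.12 to 9.12. Igfbp2 gave 807 and 1.81 CPM with a log2 ratio of 8.17 (6.94 to 9.08). Igf2 gave 15.3 and 0.0699 CPM with 3.93 (3.01 to 4.35). Igfbp3 gave 240 and 21.9 CPM with 3.40 (2.68 to 4.13). Igfbp4 was the reverse, with 55.1 CPM in T22 and 953 CPM in T127 cells and a log2 ratio of -4.09 (-4.53 to -3.58), that is 17.3-fold higher in T127. Igfbp7 did not differ beyond the pool range, with 43.1 and 42.0 CPM and a log2 ratio of 0.04 (-0.93 to 0.86). Igf1 and Igfbp6 were below 10 CPM on both sides. Of 6 genes at 10 CPM or more, 4 were thus more than 2-fold higher in T22 and 1 in T127, where 19.1% and 18.8% of 8333 genes were. These sums weigh Malign_2 and Malign_3 by their UMIs. Malign_3 held more Igfbp5 (60.1 CPM) than the T127 clusters (7.86 and 9.44 CPM), but less Igfbp3 (5.01 against 18.7 and 26.8 CPM). In these pools neither Malign_3 nor the T127 clusters passed the free RNA rule for Igf2, Igfbp2, Igfbp3 or Igfbp5. The T22 clusters did not pass it for Igfbp4. How much of the lower side of these ratios is free RNA was not tested.

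**Figure D3:**
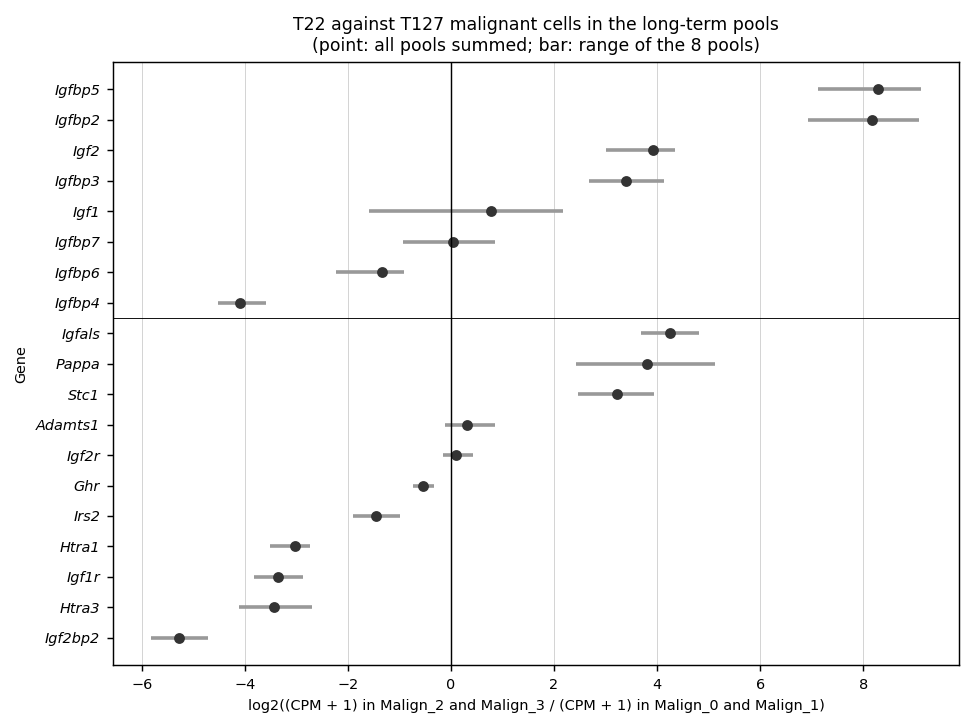
Log2 ratio (1 CPM added) of T22 to T127 malignant cells in the long-term pools, for the 8 genes (top) and for the pathway genes at 10 CPM or more (bottom). Points are sums over all pools and bars the range of the 8 pools. Igfbp5, Igfbp2, Igf2 and Igfbp3 lie to the right of 0 in all 8 pools, and Igfbp4 and Igf1r lie to the left in all 8.

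Igfbp5 UMIs were also counted in immune cells, mostly in the T22 pools. There 12632 immune cells held 12349 Igfbp5 UMIs, or 119 CPM. Cells under 3000 UMIs held 427 CPM and deeper cells 102 CPM. In the long-term pools the same values were 19.6, 42.9 and 18.6 CPM. In the T127 pools 2908 immune cells held 22 Igfbp5 UMIs (0.732 CPM), 21 of them in 1 B cell that also held 138 of the 140 Krt18 UMIs of its cluster. The share of thinned T and NK cells with an Igfbp5 UMI was 28.7% in the T22 pools (54.2% unthinned) and 0 of 336 in the T127 pools, which allows up to 0.893%. No immune cluster passed the free RNA rule for Igfbp5, with or without Epcam. CD16-CDKN1C, the shallowest of the large T22 clusters with a median of 2407 UMIs, held 221 CPM (204 to 231), more than any T22 stromal cluster but i_CAF. Over the 8 genes, 48 of 72 pairs of gene and immune cluster with more than 10 UMIs were higher in cells under 3000 UMIs than in deeper cells, where 43.2% of such pairs of all genes were.

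The number of Igfbp5 UMIs per Igfbp2 UMI in immune cells was set beside that of Malign_2 and i_CAF. It was, in the T22 pools, 8.20 in Malign_2, 1.14 in i_CAF and 8.68 (8.21 to 9.17) in all immune cells. Macro-M2 gave 8.25 (6.72 to 10.2), NK cells 7.73 (6.46 to 9.31) and CD16-CDKN1C 7.94 (7.20 to 8.78). Over all immune clusters with at least 10 Igfbp2 UMIs the ratio ran from 7.30 in CD14-PF4 to 14.5 in plasmacytoid dendritic cells. Both ends rest on few UMIs of 1 pool, with 13 in CD14-PF4 without pool 4 and 8.33 in the dendritic cells without pool 1. The ratio of Macro-M1, 10.7 (8.89 to 12.9), with 10.2 to 11.2 when each pool was left out, lay above Malign_2 beyond its interval. In the long-term pools it was 3.65 in Malign_2, 9.60 in i_CAF and 5.18 (4.73 to 5.67) in all immune cells, between both. The source of these UMIs was not tested. The ratio of Igfbp5 to Igfbp3 in the T22 pools was 9.25 in Malign_2, 4.58 in i_CAF (2.93 without pool 3) and 8.03 (7.27 to 8.89) in CD16-CDKN1C. In Macro-M2 it was 5.02 (4.25 to 5.95), but 8.10 without pool 1.

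**Figure D4:**
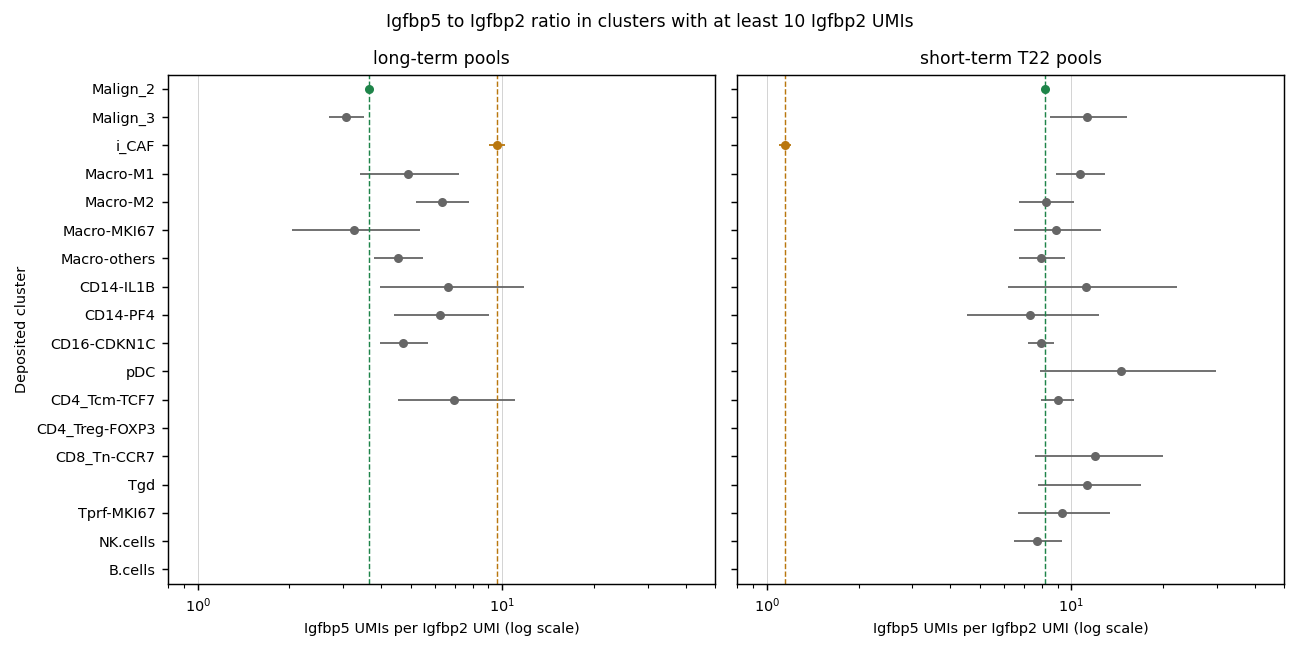
Igfbp5 UMIs per Igfbp2 UMI (log scale) with exact 95% intervals of counting error, for clusters with at least 10 Igfbp2 UMIs. Dashed lines mark Malign_2 (green) and i_CAF (orange). In the T22 pools the immune clusters lie between 7.30 and 14.5, beside 8.20 in Malign_2 and 1.14 in i_CAF.

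Igfbp3, the main carrier of IGFs in serum, was highest in endothelial cells. The long-term pools ran from 2626 to 6257 CPM around a median of 3848 CPM. The T22 pools gave 1800.1, 5691, 2013 and 4758 CPM and the T127 pools 6041, 4320.2, 6139 and 7976 CPM. The T22 and T127 pools overlapped, with each T22 pool resting on 20 to 23 endothelial cells. An Igfbp3 UMI was found in 81.4%, 71.2% and 94.7% of thinned endothelial cells, against 1.45%, 4.63% and 0.893% of T and NK cells. Malign_2 had the second highest level, with 321 to 456 CPM in the long-term pools. It held more Igfbp3 UMIs than endothelial cells, 9349 against 4554 in the long-term and 46679 against 3035 in the T22 pools. Its T22 pools gave 1011, 1050.3, 898 and 945 CPM, all higher, and the sums of 397 and 978 CPM differed 2.46-fold. The i_CAF held 133, 123 and 68.0 CPM, so that endothelial cells exceeded them 29.99-fold, 30.1-fold and 83.1-fold. Of the 131 Igfbp3 UMIs of T127 i_CAF, 56 lay in pool 2. T127 malignant cells held 18.7 to 30.8 CPM over both clusters and experiments.

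Igfbp4, whose complex with IGF is the main substrate of the protease PAPP-A, had the widest distribution in the long-term and T22 pools. It passed the main free RNA rule in 5 and 7 clusters there. In the T127 pools it passed in 3 clusters and Igfbp7 in 4. In i_CAF the long-term pools ran from 1032 to 2298 CPM (median 1432). The T22 pools gave 787, 815, 718 and 744 CPM and the T127 pools 1823, 1277, 1530.0 and 1760 CPM. The T127 pools all lay above the T22 pools, 2.09-fold in sum. T127 malignant cells had the second highest level but held more Igfbp4 UMIs than i_CAF. In the T127 pools Malign_0 held 82919, Malign_1 76019 and i_CAF 3077 Igfbp4 UMIs. The i_CAF did not pass the free RNA rule for it there, where the highest anchor varied widely between pools (0.0218 to 1.11). Malign_0 gave 808, 881, 952 and 892 CPM in the T127 pools and 808 to 1178 CPM in the long-term pools, and Malign_1 stood at 929 and 961 CPM. Some 88.3% of thinned Malign_0 cells in the long-term and 88.5% in the T127 pools had an Igfbp4 UMI. Endothelial cells held 583, 774 and 579 CPM. Their T22 pools (794, 820.1, 766 and 736 CPM) all exceeded the T127 pools (508, 570, 602 and 714 CPM), 1.34-fold in sum. In T22 malignant cells the level was 79.1 and 53.5 CPM in Malign_2 and 19.4 and 3.82 CPM in Malign_3.

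Igfbp4 was also present in part of the immune cells. Macro-M2 held 111, 41.2 and 131 CPM, CD16-CDKN1C 78.0, 44.5 and 212 CPM, and CD4_Tcm-TCF7 cells 114, 32.1 and 111 CPM. NK cells held 18.7, 7.11 and 10.99 CPM. In the T127 pools CD16-CDKN1C gave 274, 151, 215 and 204 CPM and NK cells at most 19.03 CPM in any pool. The number of Igfbp4 UMIs per Dcn UMI separated these clusters from the cells rich in both. It was 0.283 in i_CAF and 0.342 in Malign_0 of the T127 pools, but 4.40 (3.96 to 4.91) in Macro-M2 and 4.21 (3.38 to 5.28) in CD16-CDKN1C. CD4_Tcm-TCF7 gave 1.95 (1.29 to 2.98) and NK cells 0.324 (0.148 to 0.654). In the long-term pools i_CAF gave 0.218, Macro-M2 1.97, CD16-CDKN1C 2.46, CD4_Tcm-TCF7 1.90 and NK cells 0.515. By the main rule, Macro-M2, Macro-others and CD4_Tcm-TCF7 passed in the T22 pools, where 64.6%, 64.3% and 73.2% of all genes did. Without Epcam, Igfbp4 passed in 3 immune clusters of the long-term pools, Macro-M2 (71.6% of genes), CD16-CDKN1C (70.3%) and CD4_Tcm-TCF7 (34.6%). It passed in 7 of the T22 pools, with Macro-M1 (76.5%), Macro-M2 (69.1%), Macro-MKI67 (64.8%), CD16-CDKN1C (66.7%) and NK cells (70.2%) among them. The 4 of the T127 pools were Macro-M2 (77.1%), CD16-CDKN1C (55.4%), Macro-MKI67 (67.2%) and Macro-others (59.5%). The 1 call in CD4_Treg-FOXP3 cells of the T127 pools was Igfbp7 (24.8%).

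**Figure D5:**
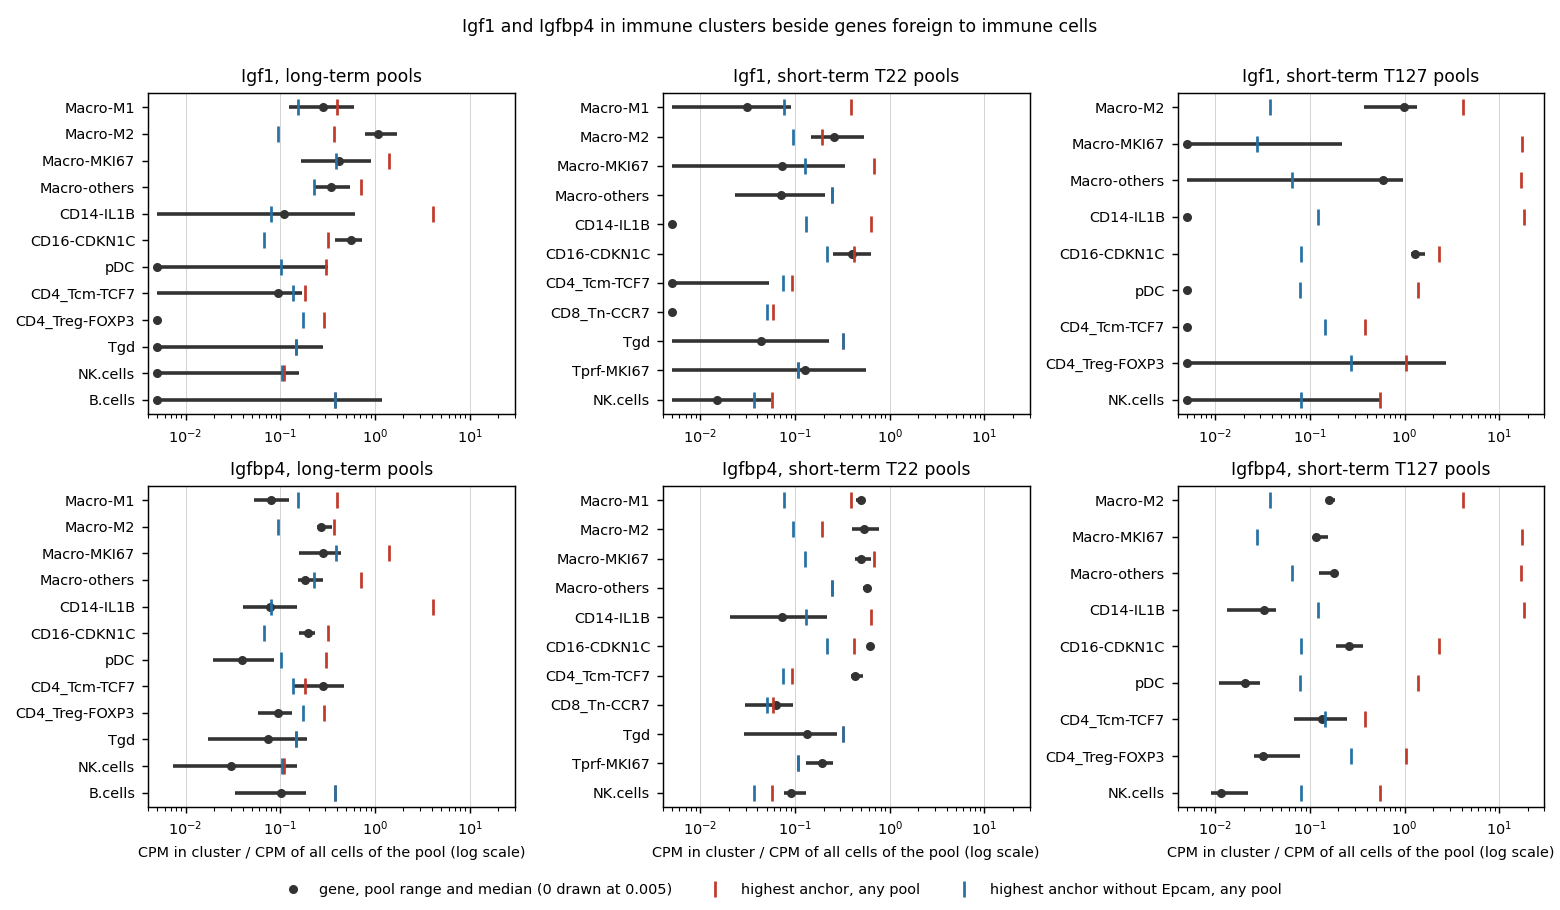
CPM in an immune cluster divided by CPM over all cells of its pool (log scale) for Igf1 (top) and Igfbp4 (bottom), with the pool range (line) and median (point). Red ticks mark the highest anchor gene in any pool and blue ticks the highest without Epcam. CD14-PF4 is absent because it did not have 2 pools with 20 cells in any experiment. In the T127 pools Igfbp4 in Macro-M2 and CD16-CDKN1C lies above the blue and below the red ticks.

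Igfbp6, which prefers IGF2, was highest in i_CAF. The long-term pools ran from 957 to 1896 CPM (median 1477). The T22 pools gave 453, 351, 468 and 457 CPM and the T127 pools 581, 562, 507 and 598 CPM. Both short-term sets lay below every long-term pool, 3.36-fold and 2.60-fold in sum, and the T127 pools all lay above the T22 pools. The my_CAF held 4.04 CPM in the long-term pools, from 3 UMIs of which 2 lay in pool 6, a ratio of 360.4 (123 to 1748). Of thinned i_CAF 75.4%, 47.9% and 48.2% had an Igfbp6 UMI, against 0.727%, 0.382% and 0.298% of T and NK cells. Malignant cells held 0 to 6.67 CPM, and Malign_0 passed the free RNA rule for it in the T127 pools at 3.85 CPM. Without Epcam, Macro-M2 passed in the T22 (5.93 CPM, 69.1% of genes) and T127 pools (7.73 CPM, 77.1%).

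Igfbp7, a low-affinity IGF binder deposited in vessel walls, was highest in the vascular clusters. Endothelial cells and my_CAF overlapped in the long-term pools. In endothelial cells the long-term pools ran from 11339 to 16942 CPM. In T22 they gave 14084, 13455, 12588 and 13703 CPM, all above the T127 pools with 9121, 8626, 11654 and 10329 CPM. The my_CAF held 9946 CPM in the long-term and 6540 CPM in the T22 pools (6976, 6092, 6056 and 7253 CPM). The i_CAF held 2848, 2483 and 2468 CPM. For i_CAF the T22 to T127 ratio was 1.01 (0.974 to 1.04), with overlapping pools. All 93 thinned my_CAF of the long-term and all 111 of the T22 pools had an Igfbp7 UMI, as did 97.1%, 100% and 98.9% of endothelial cells. Malignant clusters held 28.0 to 51.7 CPM.

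Some high values came from single cells. Of the T22 pools, 191 of 192 Igfbp7 UMIs of plasmacytoid dendritic cells came from 1 cell, and 30 of 31 Igf2 UMIs of CD14-PF4 cells came from 1 cell. In the long-term CD14-PF4 cluster 2 cells held 94.1% of the Igfbp5 and 92.7% of the Igfbp7 UMIs. The CD14-PF4 cluster also carried the keratin genes Krt8 (391.5, 275 and 96.1 CPM) and Krt18 (647, 170.5 and 85.1 CPM), and their part in these values was not tested.

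Set side by side, short-term i_CAF of the T22 and T127 tumors differed more than 2-fold in 4 of 7 genes at 10 CPM or more. Igfbp2 and Igfbp5 were higher in T22 (8.61% of 8627 genes were) and Igf1 and Igfbp4 lower (6.06%). Of these, the pools of Igfbp5 overlapped, and the log2 ratio of Igfbp4, -1.06, was -0.99 and so under 2-fold without T127 pool 1. Igfbp5 did not pass the free RNA rule in T22 i_CAF. In endothelial cells 1 of 5 genes, Igf1, was lower in T22 (5.23%) and none was higher (6.39%). Igfbp5 lay just under the cut, with a log2 ratio of 0.998 that ran from 0.44 to 3.17 when each pool was left out in turn. It did not pass the free RNA rule in endothelial cells of either set. In Macro-M2 3 of 5 were higher in T22 (5.99%), Igfbp2, Igfbp3 and Igfbp5, and Igfbp4 was lower (7.61%). These 3 did not pass the free RNA rule in Macro-M2, with or without Epcam. Among these, the pools of Igfbp3 overlapped, and its log2 ratio of 1.92 ran from 1.27 to 3.28 when each pool was left out in turn, the lowest without T22 pool 1 and the highest without T127 pool 4. In CD14-PF4, with 66 cells per model, 5 of 7 were higher (12.7%), Igf2, Igfbp2, Igfbp3, Igfbp5 and Igfbp7, and Igfbp4 was lower (10%). The free RNA rule could not be run in CD14-PF4, which lacked 2 pools with 20 cells. Whether CD14-PF4 cells make any of these genes was not tested. There Igf2 rested on 1 cell, and the log2 ratio of Igfbp3, 1.60 from 11 and 3 UMIs, ran from 0.93 without T127 pool 3 to 3.96 without T127 pool 4. That of Igfbp7, 4.13, ran from 2.35 without T22 pool 3 to 6.04 without T127 pool 4. For my_CAF the comparison was not made, since the T127 pools held 8 such cells. In Malign_2, short-term against long-term T22 cells differed more than 2-fold in 2 of 6 genes, Igf2 and Igfbp3, both higher in the short-term pools (10.9% of genes), and none was lower (1.15%). In i_CAF 1 of 7 was higher (Igfbp2, with overlapping pools, 9.77% of genes) and 1 lower (Igfbp6, 5.21%) in T22 than in the long-term pools. The T127 i_CAF had none higher (6.95%) and 3 lower (Igfbp2, Igfbp5 and Igfbp6, 5.09%), where the log2 ratio of Igfbp2, -4.60, was -6.07 without T127 pool 4. Against the long-term pools, T22 Malign_3 had 0 of 5 higher (15.4%) and 1 lower, Igfbp4 (1.56%). T22 my_CAF had 3 of 6 higher, Igf1, Igfbp2 and Igfbp5 (16.4%), and 0 lower (3.72%). None of the 3 passed the free RNA rule in T22 my_CAF. Of these, Igf1 had overlapping pools and a log2 ratio of 1.07 that fell to 0.35 without T22 pool 2. That of Igfbp5, 1.14, was 0.83 without T22 pool 4 and 3.52 without long-term pool 4. T22 endothelial cells had Igfbp5 higher (9.87%) and Igf1 lower (4.83%) of 5, both with overlapping pools. Neither passed the free RNA rule in T22 endothelial cells. The log2 ratio of Igfbp5, 1.15, was 0.58 without T22 pool 4 and 2.65 without long-term pool 1. T22 Macro-M2 had Igfbp2, Igfbp3 and Igfbp5 higher (10.8%) and Igf1 and Igfbp4 lower (3.43%) of 6. The pools of Igfbp3 overlapped, and its log2 ratio of 1.64 fell to 0.99 without T22 pool 1. In T127 neither Malign_0 (18.9% and 2.56%) nor Malign_1 (19.5% and 2.53%) had any of 3 genes past 2-fold. T127 endothelial cells had Igf1 higher (8.14%), with overlapping pools and a log2 ratio of 1.20 that fell to 0.85 without T127 pool 1, and 0 lower (4.99%) of 5. T127 Macro-M2 had 0 of 4 higher (16%) and 2 lower, Igf1 and Igfbp5 (3.89%). Treatment time, transplant setting and capture cannot be told apart in these comparisons, and the long-term stroma comes from both models.

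Within i_CAF it was counted which of the genes were found in the same cells. In the long-term pools Igf1 was found in 24.5% of the 261 thinned i_CAF with an Igfbp5 UMI and in 59.2% of the 397 without one. Igfbp5 in turn was found in 48.2% of i_CAF with Igfbp6 and 13.6% of those without. Igfbp4 was found in 57.1% of Igfbp5-positive and 76.3% of Igfbp5-negative cells. The T22 pools did not show the first pattern, with Igf1 in 30% of Igfbp5-positive and 25.3% of Igfbp5-negative i_CAF. The T127 pools gave 33.3% (3 of 9 cells) and 60.5%. In T22 i_CAF Igfbp5 did not pass the free RNA rule, so an Igfbp5 UMI there need not mark a cell that makes it. Igfbp5 was more frequent in Igfbp6-positive cells in these sets as well, with 43.7% against 27.9% in T22 and 14.6% (6 of 41 cells) against 6.82% (of 44 cells) in T127. In Malign_2 Igfbp5 and Igfbp2 were found together, with Igfbp5 in 97.3% of Igfbp2-positive and 79.3% of Igfbp2-negative cells of the long-term pools. These shares are over cells of 1 sample each and carry no test. Long-term i_CAF come from both models and all pools, and the part that model or pool has in the long-term patterns was not tested.

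The long-term pools were split here into 2 sets of 4, pools 1 to 4 and pools 5 to 8. The split was read from these data, and the labels do not give it or say what separates the sets. Barcodes were shared in large numbers among pools 1 to 3 only, and pool 4 shared at most 6 with any of them. Malign_1 had 293 to 360 cells in each of the first 4 pools and 109 to 157 in the others. Igfbp4 was higher in all of pools 1 to 4 than in any of pools 5 to 8 in Malign_0 (992 to 1178 against 808 to 879 CPM), Malign_1 (972 to 1092 against 720.4 to 841 CPM), i_CAF (1641 to 2298 against 1032 to 1224 CPM) and endothelial cells (613 to 851 against 458 to 491 CPM). In i_CAF Igf1 (453 to 733 against 352 to 409.6 CPM) and Igfbp7 (3441 to 4043 against 2059 to 2442 CPM) lay apart in the same way, and Igfbp3 lay the other way (52.2 to 105 against 109 to 295 CPM). That made 3 of 7 genes higher and 1 lower in i_CAF, where 12.2% and 9.92% of all genes lay apart. In Malign_2 none of 6 did, where 11.1% and 9.03% of genes did. For endothelial cells 1 of 5 was higher and 0 lower, against 2.54% and 2.65% of genes. For Malign_0 1 of 3 was higher and 0 lower (15.1% and 21.8%), and for Malign_1 1 of 3 was higher and 1 lower, Igfbp3 (8.56% and 18.2%). Macro-M2 had 1 of 4 higher, Igfbp4 (117 to 134 against 86.1 to 108 CPM), and 0 lower (12.8% and 21% of genes). CD16-CDKN1C had 1 of 4 higher, Igf1 (12.1 to 19.2 against 8.66 to 11.1 CPM), and 0 lower (12.3% and 12.1%). Whether the pool sets differ in the tumors they hold was not tested.

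Receptors, proteases and other partners of the family were read from a list of 20 genes. Igf1r, the signaling receptor, was highest in T127 malignant cells, at 103 CPM in Malign_1 of the long-term and 223 CPM of the T127 pools. In the long-term pools T22 malignant cells held 8.80 CPM of it and T127 cells 100.02 CPM, a log2 ratio of -3.37 (-3.82 to -2.88). It was highest in T22 pools in Tgd cells, at 170.2 CPM. Igf2r, the receptor that clears IGF2, differed little between malignant cells, at 33.7 and 31.6 CPM, with 0.09 (-0.16 to 0.43), and was highest in my_CAF (97.0 and 190 CPM) and, in the T127 pools, i_CAF (106 CPM). Insr, the insulin receptor, was an endothelial gene at 41.2, 52.4 and 49.5 CPM. The adaptor Irs1 led in i_CAF (18.4, 28.8 and 23.4 CPM) and Irs2 in lymphoid cells (62.7 and 151 CPM in Tgd, 295 CPM in NK cells of the T127 pools).

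Of the 20 genes 11 reached 10 CPM in long-term malignant cells, of which 3 were higher and 5 lower in T22 by more than 2-fold, where 19.1% and 18.8% of all genes were. Higher in T22 were Igfals, the acid-labile subunit that completes the circulating IGFBP3 complex (log2 ratio 4.25), the protease gene Pappa (3.81) and its inhibitor Stc1 (3.23). Lower were Igf1r, Irs2 (-1.45), the proteases Htra1 (-3.02) and Htra3 (-3.43) and the RNA-binding protein gene Igf2bp2 (-5.28). Pappa stood at 82.7 and 115 CPM in Malign_2 and at 93.9 CPM in T127 i_CAF. Stc1 was highest in endothelial cells (450, 248 and 349 CPM). Adamts1 was highest there too (379, 572 and 431 CPM). Htra3 was an i_CAF gene (713, 185 and 202 CPM), and Htra1 led in Malign_0 (681 and 1216 CPM). Igfbp1 never passed 1 UMI in its leading cluster, which does not allow a level to be given.

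Across the 56 clusters of the 3 experiments with at least 20 cells, log2(CPM + 1) of each gene was compared with 8058 genes that reach 50 CPM somewhere. These points share pools, free RNA and depth, and the correlations (Pearson r) are a description. Closest to Igf1 were Lox (0.83), Cped1 and Ildr2, and closest to Igfbp6 were Wnt2 (0.87), Mfap4 and Tmeff2. Igf2 was closest to Pgm5 (0.84), Dsc3 and Moxd1. Igfbp2 was closest to Ecrg4 (0.91), Lgals7 and Igfbp5, and Igfbp5 to Igfbp2 (0.87), Ecrg4 and Sfrp1. Igfbp3 was closest to Vwa1 (0.87), Synm and Adamts9. Igfbp4 was closest to Pmp22 (0.85), Timp1 and Wipi1. Igfbp7 was closest to Dlc1 (0.93), Tspan6 and Col4a2. Within the family Igfbp2 and Igfbp5 (0.87) and Igfbp3 and Igfbp7 (0.77) had the highest values, and Igf1 and Igf2 gave 0.0033.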

How the data were processed

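Tumors were dissociated, tagged, pooled and sequenced with 10x 3′ chemistry. Per the study's methods, the authors aligned reads to GRCm38 with Cell Ranger 6.0.0, introns included, filtered cells, removed doublets and named the clusters. The deposited raw UMI counts, not normalized, and the deposited cluster names were used. The labels give the organism as human, although the genes are mouse genes. The deposited normalized values were not used.

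Counts were summed per cluster, pool and experiment with Python 3.11.15, numpy 2.4.6, scipy 1.17.1 and pandas 2.3.3, and figures drawn with matplotlib 3.10.9. Barcodes shared by long-term pools were kept once, as the deepest copy. The number of cells with a UMI was taken after thinning to 3000 UMIs per cell, leaving out shallower cells. Anchors needed 100 UMIs in a pool, and floors are 3 counts. Fold calls used 1 CPM added and a level of 10 CPM. The scripts were checked on simulated data. Cells and pools are not replicates, so no difference was tested, and Dixon's criterion was used only to single out pools. The genes, lists and rules were chosen with earlier results of these data known. Named partners of the family are those of the list of 20 genes, and the genes most alike are the 3 with the highest Pearson r. Leaving Epcam out of the anchors was chosen after seeing the data. Sequences are not shown.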

Additional observations from a re-analysis of the deposited data

Results flagged for a closer look

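In 4 of 50 groups of 4 to 8 pools, 1 pool stood apart from the others by Dixon's criterion, which chance alone gives in about 1 of 20 groups. Igf1 in long-term i_CAF was 733.285 CPM in pool 4 (86 cells), with the next pool at 482.6 CPM and 403.4 CPM in sum without it. Igfbp3 in long-term endothelial cells was 6257.42 CPM in pool 5 (34 cells), with the next at 4144 CPM and 3725 CPM without it. Igfbp4 in long-term CD4_Tcm-TCF7 cells was 224.292 CPM in pool 4 (76 cells), with the next at 119.7 CPM and 106.1 CPM without it. Igfbp6 in i_CAF of T22 was 351.423 CPM in pool 2 (71 cells), below the next at 453.2 CPM and 459.7 CPM without it. The cause was not tested.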

How the results depend on the processing

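Over all alternatives 650 values stayed within the spread between pools, the interval of a share or 1.5 times a count, 25 moved, and 0 ratios past 2-fold changed sign. Most of these values left out 1 pool, and a sum over the other pools mostly stays within the pool spread by construction. They say little on the processing, and adding 10 CPM cannot change a sign. Among the shares of cells with a UMI, 6 moved and 2 stayed. Ratios under 2-fold changed sign in 9 alternatives over 4 results, with no direction to be read from them. Leaving out each pool in turn gave log2 ratios of -0.23 to 0.12 for Igfbp7 in malignant cells, -0.05 to 0.06 for Igfbp7 in i_CAF, -1.30 to 0.28 for Igf2 in endothelial cells and -0.87 to 2.04 for Igfbp7 in Macro-M2. Igfbp7 in malignant cells was also -0.05 with clusters weighted equally and -0.08 without the 5% of cells with the most UMIs. Pairs above free RNA numbered 41, 42 and 26 with the median anchor, and 23 in the T127 pools without Epcam, against 19, 20 and 15. With 10 CPM added, the log2 ratio of malignant T22 to T127 cells fell to 1.33 for Igf2, 6.11 for Igfbp2, 7.32 for Igfbp5 and -0.47 for Igfbp6, that of i_CAF to 5.20 for Igfbp2 and that of Macro-M2 to 3.37 for Igfbp5. Without the 5% of cells with the most UMIs, Igf1 in T22 i_CAF was 153 CPM, Igfbp2 and Igfbp5 in T22 Malign_2 were 1150.3 and 9896 CPM, the Igfbp3 malignant ratio was 3.95 and the Igf1 i_CAF ratio -2.11. Unthinned shares were 63.9% for Igf1, 23.7% for Igf2, 98.6% for Igfbp2, 82.8% for Igfbp4, 99.0% for Igfbp5 and 85.3% for Igfbp6. Leaving out each pool in turn gave 0.669 to 4.98 CPM for Igfbp2 in T127 i_CAF and a log2 ratio of 6.36 to 8.21, the highest without T127 pool 4. It gave 0 to 238 CPM for Igfbp5 in T127 B cells. Between experiments, calls that fell under 2-fold without 1 pool are given beside the results. The causes were not tested. No paired analysis was possible because the experiments compared with each other share only pool numbers. T22 and T127 malignant cells were compared within each of the 8 long-term pools, and the ranges given for them are of these within-pool ratios.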
